A study of Picea abies with 36 samples.

Results

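The genes described here are the 105 gene models of the Norway spruce (Picea abies) hypocotyl that were abundant in mock-treated seedlings and stood at a moderately lower level wherever auxin had been applied. They were selected from 70736 gene models on their measured mean levels in CPM, the gene's share of all reads of a library scaled to a common library size. A gene had to average at least 100 CPM over the 9 Mock libraries. Its log2 ratio to Mock, taken between the means of 9 libraries with 0.5 CPM added to each, had to lie above -2 and at or below -1 both with auxin alone and with auxin plus cytokinin, and below 1 with cytokinin alone. The limit of 200 genes was not reached, and the condition on cytokinin removed none.

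Hypocotyls, the stems below the cotyledons, came from seedlings grown for 2 weeks in a phytotron. Hormone in lanolin, a wool wax used as carrier, was put on the middle of the stem a single time, as 135 mM BAP (6-benzylaminopurine, a synthetic cytokinin), 50 mM IAA, which is indole-3-acetic acid and the chief auxin found in plants, or both at those concentrations, and the controls are labelled Mock. Tissue was collected after 5, 10 and 15 days, with 3 libraries for each of the 12 combinations of treatment and day. Nothing in the labels ties the 3 replicates to different plants or pools, so a p-value measures only how far these libraries spread, which may be technical.

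Auxin is made mainly in young shoot organs and moves down the stem, where it is known for its part in cell elongation, in vascular differentiation and in the activity of the cambium, the dividing layer that makes wood and phloem. At the molecular level it brings TIR1/AFB receptor proteins together with Aux/IAA repressors, which are then degraded and release ARF transcription factors. Cytokinins act through histidine kinase receptors and response regulators and are known as promoters of cambial division. Most genes lowered by auxin are thought to be reached indirectly, through the programmes that these factors set in motion. The files do not pair the identifiers of the 105 genes with names or functions, so their roles are not described, the labelled tissue was not checked against marker genes, and at most 2 identifiers in each direction are printed for a comparison.

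Libraries held 12531117 to 22280720 reads in gene models. The least covered of the 105 genes in any library had 88 reads, and all 105 were among the 38239 gene models tested. The replicates of each group differed beyond the noise of counting. The column names give a collection number from 1 to 3 in place of the day. It was read as the order of the collection days, so statements about a particular day rest on that reading.

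The values that chose the genes are a description and carry no test. Over all 9 libraries of a treatment, the 105 genes had a median level of 239 CPM in Mock, with a range from 101 to 2747 CPM. With IAA the median was 83.9 CPM, with BAP+IAA 90.7 CPM and with BAP 142 CPM. Relative to its own Mock mean, the median gene kept 36.8% with IAA, 39.4% with the combination and 63.7% with BAP alone. The auxin-treated values are bounded by the rule on both sides, and those with BAP only from above. With BAP 102 genes were below their Mock mean and 3 above it, from 28.1% to 113% of Mock. The abundant genes of Mock numbered 1850 in all. Of these, 227 lay in the same window with IAA, 65 were lower still and 1558 were higher. Of the 227, the combination lay above its window in 65 and below it in 57.

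Near the limits, genes inside and outside the rule were close together. For the Mock level the nearest gene inside had 101 CPM and the nearest outside 96.5 CPM. For IAA the upper limit separated log2 ratios of -1.0001 (inside) and -0.984 (outside), and the lower limit -1.997 and -2.002. For the combination these pairs were -1.01 and -0.99 at the upper limit and -1.98 and -2.07 at the lower.

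Together the 105 genes took a smaller share of the reads in every treated library than in any Mock library. In Mock they held 4.72%, 4.22% and 4.59% of all reads in the 3 libraries at 5 days, and 4.40%, 4.36% and 4.08% at 15 days. After 5 days of IAA they held 1.13%, 1.29% and 0.996%, after 10 days 1.55%, 1.64% and 1.41%, and after 15 days 1.87%, 2.19% and 2.02%. The IAA groups of the 3 days did not overlap, and each later day was higher. With BAP+IAA the shares after 5 days were 1.497%, 1.49% and 1.40%, after 10 days 1.84%, 1.72% and 1.83%, and after 15 days 1.77%, 1.65% and 1.95%, so both later days lay above the earliest and overlapped each other. BAP alone gave 3.52%, 2.80% and 2.68% at 5 days and 2.85%, 2.47% and 2.32% at 15 days. As group means relative to same-day Mock, the sum stood at 25.3%, 33.9% and 47.3% with IAA on the 3 days, at 32.4%, 39.6% and 41.8% with BAP+IAA and at 66.6%, 61.3% and 59.5% with BAP. In whole stems a lower share can come from fewer cells of a type or from less RNA per cell, and these cannot be told apart.

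**Figure D1:**
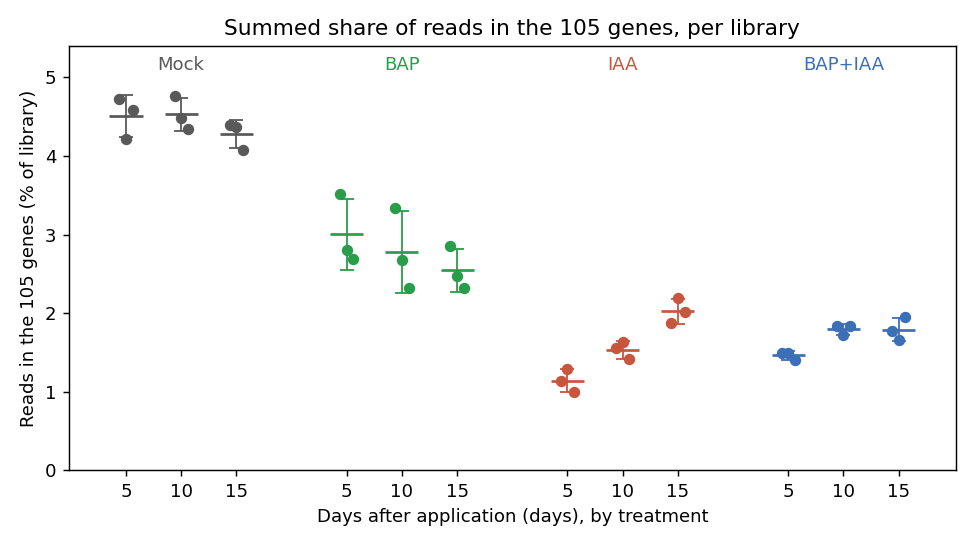
Share of each library's reads (%, y axis) in the 105 genes, by treatment and days after application (x axis). Points are libraries in the order of replicate 1 to 3, horizontal lines are group means and error bars are SD (n = 3). With IAA the mean went from 1.14% at 5 days to 2.03% at 15 days, while Mock stayed between 4.08% and 4.76% in its 9 libraries.

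Replicate 1 of BAP had the highest sum of the BAP libraries on each day. It was the highest of the 3 libraries in 67, 82 and 86 of the 105 genes on the successive days. It also held fewer reads than the other BAP libraries at 5 and 10 days, 12531117 and 12919095. Without it the mean share with BAP was 2.74%, 2.50% and 2.39% on the 3 days, and the median log2 ratio of the 105 genes to Mock was -0.69, -0.80 and -0.82 in place of -0.53, -0.64 and -0.71. Such a pattern was not confined to BAP. Replicate 2 of IAA had the highest sum of the IAA libraries on each day, and was highest in 78, 52 and 51 genes. At 5 days it was also the library with the most reads, 22280720. Replicate 1 of Mock had the highest Mock sum on each day, but gene by gene it led only at 10 days, in 60 genes. At 5 days it was highest in 34 genes and replicate 3 in 55. At 15 days it was highest in 39 genes and replicate 2 in 42. Whether these replicates differ in handling was not tested.

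Day by day, every one of the 105 genes had a mean below Mock with IAA and with BAP+IAA, and the size of the difference varied with the day. With IAA the median log2 ratio to same-day Mock was -1.95 at 5 days (range -3.85 to -0.65), -1.55 at 10 days and -1.15 at 15 days (range -1.67 to -0.30). Genes at least 2-fold below Mock numbered 102, 95 and 70 on these days. With the combination the medians were -1.54, -1.32 and -1.25, and 98, 96 and 81 genes were at least 2-fold lower. With BAP they were -0.53, -0.64 and -0.71, and 14, 22 and 20 genes were at least 2-fold lower. The other 1745 abundant genes had medians between -0.14 and -0.01 in these 9 comparisons. All 3 IAA libraries were below all 3 Mock libraries at 104, 105 and 100 of the 105 genes on the 3 days, where 27.8%, 26.7% and 22.4% of all tested genes were. For BAP+IAA that held at 104 genes on each day, against 25.3%, 26.2% and 24.1% of all tested genes, and for BAP at 59, 81 and 91 genes, against 15.3%, 18.0% and 18.1%. The rule used these contrasts, so nothing is read from the counts.

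**Figure D2:**
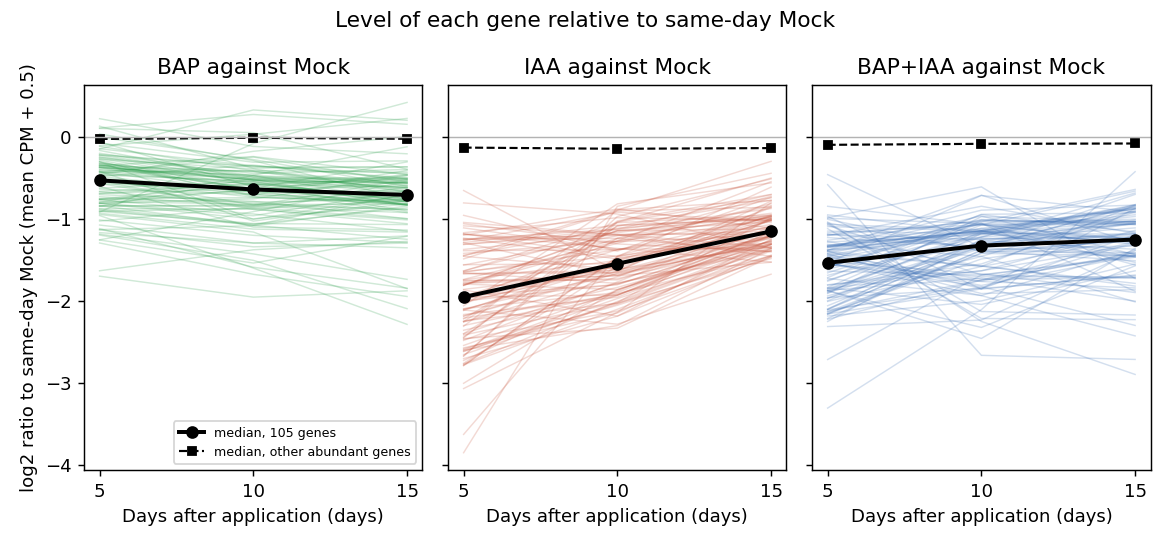
Log2 ratio of mean CPM (0.5 added) to same-day Mock (y axis) at 5, 10 and 15 days (x axis), in 1 panel per treatment. Thin lines are the 105 genes, the thick line with circles is their median and the dashed line with squares the median of the other 1745 abundant genes. The median with IAA is -1.95 on the earliest day and -1.15 on the last, and with BAP -0.53 and -0.71.

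The 2 most abundant of the 105 genes each departed from the general pattern in part. MA_10429943g0030 had 3419, 2480.0 and 2351 CPM in the Mock libraries at 5 days and 2569.7, 2482 and 2578 CPM at 15 days. With IAA it had 762, 1066 and 814 CPM at 5 days, 997, 1171 and 1069 CPM at 10 days and 1132, 1425 and 1338 CPM at 15 days. With BAP+IAA it had 708, 757 and 822 CPM at 5 days, 1095, 1414 and 1279.6 CPM at 10 days and 1349, 1361 and 2041 CPM at 15 days. No auxin-treated library reached the lowest Mock library, and in the combination all libraries at 10 and 15 days lay above those at 5 days. With BAP it ranged from 858 CPM in replicate 3 at 10 days to 1828 CPM in replicate 1 at 5 days. From 5 to 15 days its IAA effect changed by 0.68 ± 0.29 on the log2 scale (SE, edgeR adjusted p = 0.12). Its BAP+IAA effect changed by 1.16 ± 0.29 (SE, edgeR adjusted p = 0.016). The change with IAA minus that with BAP+IAA was -0.48 (edgeR adjusted p = 0.33). That was the lowest value among the 105 genes, of which 102 had a positive one.

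In the means over all 9 libraries of a treatment, MA_9065834g0010 was lower with BAP than with auxin. That was so for 3 of the 105 genes when BAP was set against both auxin treatments. At 5 days alone this gene was not lower with BAP than with IAA. In Mock it had 3255, 2584 and 2053 CPM at 5 days, 2993, 2156 and 1922 CPM at 10 days and 2642, 2296 and 1964 CPM at 15 days. With BAP it had 805, 926 and 699 CPM, 781, 450.1 and 593 CPM, and 696, 617 and 565 CPM on these days. With IAA it had 632, 745 and 453 CPM at 5 days and 872, 1598 and 1326 CPM at 15 days, without overlap between those days. In the combination it went from 1247, 871 and 831 CPM at 5 days to 616, 575 and 1146 CPM at 15 days, where replicate 3 stood apart from the other libraries of its group. Its log2 ratio to Mock over all days was -1.83 with BAP, -1.45 with IAA and -1.33 with both, and the BAP value was the lowest among the 105 genes.

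How the level changed between the days is not set by the rule, which used the mean of the 3 days and not their difference. The difference between the IAA effect at 15 days and at 5 days, each taken against Mock of the same day, was tested over all 38239 genes with the quasi-likelihood method of edgeR and Benjamini-Hochberg adjustment. The log2 difference from Mock became smaller in 60 of the 105 genes (57.1%), where 9.04% of all tested genes were called in that direction. It became larger in 0, where 7.06% of all tested genes were called. Of the other 1745 abundant genes, 18.3% were called in the direction of the 60 and 24.2% in the opposite one. At an unadjusted p under 0.05 the 105 genes gave 75 and 2, where 15.3% and 12.9% of all tested genes passed. DESeq2 called 64 and 0, against 10.3% and 7.48% of all tested genes. The median change was 0.82 on the log2 scale, against -0.04 for the other 1745 abundant genes and 0.04 for all tested genes, and 97 of the 105 genes had a positive value. Leaving out single libraries gave 50 to 66 genes, and up to 3 genes were called in the opposite direction (3 without replicate 2 of IAA at 15 days, and 1 when the omitted library was replicate 1 of BAP at 15 days, replicate 1 of Mock at 5 days, replicate 2 of IAA at 10 days or replicate 3 of IAA at 5 days).

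The 60 genes had a median of 19.7% of same-day Mock with IAA at 5 days, 33.8% at 10 days and 49.7% at 15 days. On the last of these days they reached 81.3% of Mock at most, so none of them had a group mean back at the Mock level. The 45 genes without a call were at 36.6%, 36.2% and 43.6% on the same days. Their 5-day level was thus closer to the later ones, and a missing call does not show that their level stayed the same. The 60 and the 45 genes were split by the test of this change, so their different courses follow largely from the choice. Mean CPM with IAA was lowest at 5 days in 91 of the 105 genes and was higher on each later day in 88. Among the other 1745 abundant genes 41.9% were lowest at 5 days and 517 were higher on each later day. In the 65 genes that shared the IAA window but lay above it in the combination, these were 52.3% and 30 genes. All 3 IAA libraries at 15 days were above all 3 at 5 days in 79 genes and below them in 3, where 26.0% and 21.7% of all tested genes were. In Mock these numbers were 12 and 6, against 10.1% and 8.58% of all tested genes. With BAP+IAA they were 52 and 22, against 19.7% and 17.1%, and with BAP 6 and 22, against 18.2% and 15.5%.

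In part of the genes the difference from Mock was already smaller at 10 days. Between 5 and 10 days the IAA effect became smaller in 24 of the 105 genes and larger in 0 by edgeR, where 6.53% and 4.19% of all tested genes were called. Of the other abundant genes, 15.4% and 15.3% were called in these directions. At an unadjusted p under 0.05, 45 of the 105 genes were called smaller and 1 larger, where 13.3% and 10.4% of all tested genes passed. DESeq2 called 26 and 0, against 7.39% and 5.34% of all tested genes. The median change was 0.45 on the log2 scale, against 0.01 for the other abundant genes. The 24 genes stood at a median of 19.4% of Mock with IAA at 5 days and 45.0% at 10 days. In the combination their medians were 27.4% and 32.0%. These genes were picked by their change with IAA, so no difference between the treatments is read from these medians.

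MA_9307g0010 had the largest change with IAA among the 105 genes, between 5 and 10 days and between 5 and 15 days. With IAA it had 59.1, 77.8 and 53.7 CPM at 5 days, 216, 329.9 and 364 CPM at 10 days and 285, 368 and 397 CPM at 15 days. In Mock it had 1053, 1017 and 704 CPM at 5 days, 496, 546 and 594 CPM at 10 days and 463, 595 and 370.5 CPM at 15 days. The Mock libraries were thus also lower at the later days, with a change from 5 to 15 days of -0.96 ± 0.26 on the log2 scale (SE, edgeR adjusted p = 0.055). The IAA effect changed by 3.42 ± 0.38 on the log2 scale from 5 to 15 days (SE, edgeR adjusted p = 7.2e-07) and by 3.06 ± 0.37 from 5 to 10 days (SE, edgeR adjusted p = 6.5e-06). At 15 days the highest IAA library (397 CPM) was above the lowest Mock library (370.5 CPM), so the groups overlapped.

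MA_4154579g0010 had the next largest change and a steady Mock level. In Mock it had 1403, 1303 and 1512 CPM at 5 days, 1326, 1369 and 1371 CPM at 10 days and 1406, 1351 and 1230.3 CPM at 15 days. With IAA it had 91.7, 180.4 and 67.5 CPM at 5 days, 483, 619.7 and 382 CPM at 10 days and 552, 629 and 539 CPM at 15 days. The IAA groups at 10 and 15 days overlapped each other and lay wholly above 5 days, and all stayed below Mock. The IAA effect changed by 2.43 ± 0.41 on the log2 scale from 5 to 15 days (SE, edgeR adjusted p = 0.00013) and by 2.23 ± 0.41 from 5 to 10 days (SE, edgeR adjusted p = 0.00054). In the combination it had 133, 287 and 221 CPM at 5 days and 312, 325 and 574 CPM at 15 days, a change in the effect of 0.99 ± 0.40 that was not called (SE, edgeR adjusted p = 0.16).

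**Figure D3:**
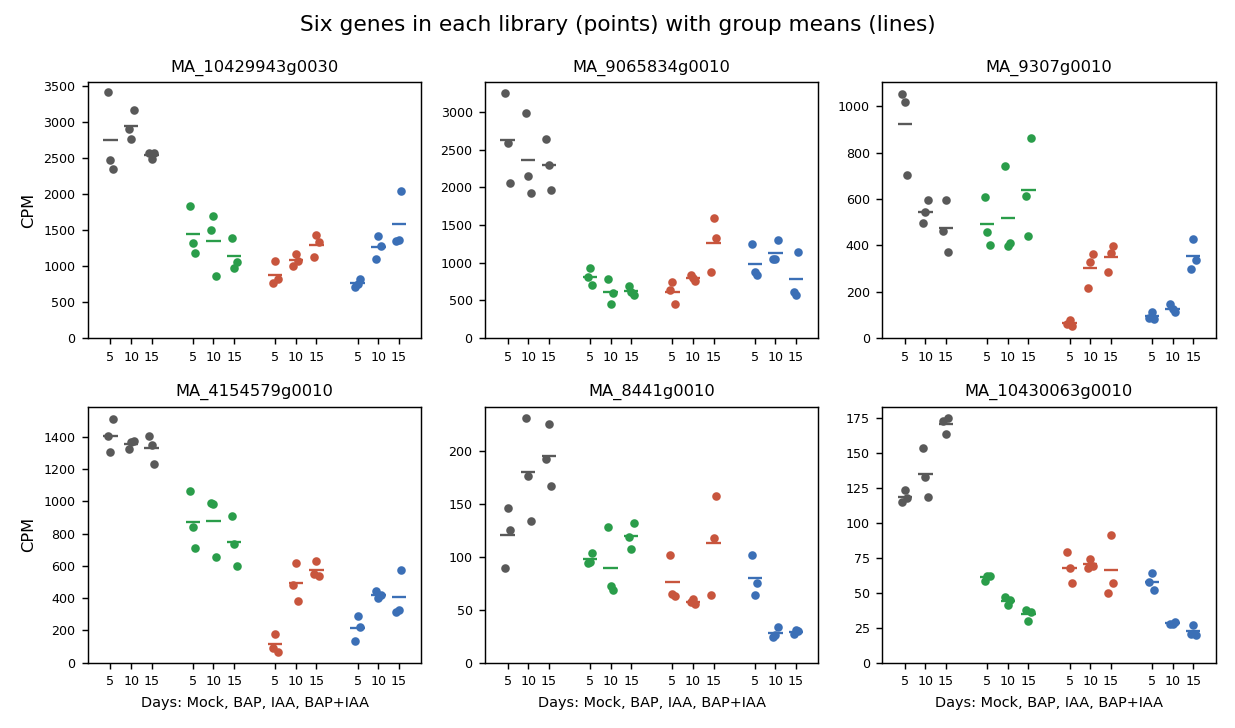
CPM (y axis, linear, from 0) of 6 of the 105 genes in each library, at 5, 10 and 15 days within Mock, BAP, IAA and BAP+IAA from left to right (x axis, days). Points are libraries and lines group means. MA_9307g0010 and MA_4154579g0010 are higher at 15 than at 5 days with IAA, and MA_8441g0010 and MA_10430063g0010 are lower at 15 days in the combination.

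With both hormones, calls among the 105 genes went in both directions, and most genes had no call. From 5 to 15 days the log2 difference between BAP+IAA and Mock became smaller in 19 genes and larger in 12 (edgeR, adjusted p under 0.05), where 2.75% and 3.0% of all tested genes were called. Of the other abundant genes, 7.51% and 9.74% were called, so the 11.4% of the 105 genes with a larger difference is close to the share among the other abundant genes. At an unadjusted p under 0.05, 43 and 14 of the 105 genes were called, where 9.32% and 9.01% of all tested genes passed. Of the other 1745 abundant genes, 309 and 350 passed at that limit. DESeq2 called 25 and 12 of the 105 genes, against 3.69% and 3.64% of all tested genes. The median change was 0.34 on the log2 scale, with a range from -2.16 to 2.88. The 19 genes went from a median of 24.9% of Mock at 5 days to 51.0% at 15 days, and the 12 genes from 50.0% to 27.1%. With IAA alone the same 12 genes had medians of 45.1%, 39.6% and 39.1% on the 3 days. They were picked by their change in the combination, so no difference between the treatments is read from these medians. The number with a smaller difference depended on single libraries of the combination and Mock. It was 9 without replicate 1 of BAP+IAA at 15 days or replicate 3 at 5 days, 10 without replicate 1 of BAP+IAA at 5 days or replicate 3 of Mock at 15 days, 11 without replicate 2 of BAP+IAA at 5 days, replicate 3 of BAP+IAA at 15 days or replicate 3 of Mock at 5 days, and 12 when replicate 1 of Mock at 5 days was omitted or without the filter on low counts. The number with a larger difference was 7 without replicate 1 of BAP+IAA at 15 days or replicate 1 or 2 of Mock at 5 days.

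MA_9307g0010 also had the largest positive change in the combination. It had 86.7, 111 and 80.6 CPM at 5 days, 145, 123 and 110.1 CPM at 10 days and 298, 429 and 338 CPM at 15 days. Its level at 10 days was thus near that at 5 days, where IAA alone had 216 CPM or more in each library. The change in the effect from 5 to 15 days was 2.88 ± 0.37 on the log2 scale (SE, edgeR adjusted p = 1.3e-05). MA_191819g0010 had 35.3, 31.7 and 20.8 CPM with BAP+IAA at 5 days and 69.0, 61.5 and 65.6 CPM at 15 days, without overlap. Its Mock libraries had 127, 134 and 136 CPM and 139.5, 126 and 94.4 CPM on these days, and the effect changed by 1.29 ± 0.26 (SE, edgeR adjusted p = 0.0023).

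MA_8441g0010 had the most negative change in the combination. With BAP+IAA it had 102, 64.2 and 75.2 CPM at 5 days, 23.8, 26.4 and 34.1 CPM at 10 days and 27.0, 30.6 and 30.3 CPM at 15 days. In Mock it had 89.9, 146 and 126 CPM at 5 days and 192, 226 and 167 CPM at 15 days, and with IAA alone 101, 64.9 and 63.2 CPM and 63.6, 118 and 158 CPM. At 5 days replicate 1 of BAP+IAA lay within the range of Mock, and at 15 days all combination libraries lay below every Mock, BAP and IAA library. The effect changed by -2.16 ± 0.39 on the log2 scale (SE, edgeR adjusted p = 0.00073).

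The difference from Mock became larger for MA_10430063g0010 both with BAP and with the combination. In Mock it had 115, 123 and 118 CPM at 5 days and 173, 163 and 175 CPM at 15 days. With BAP it had 58.2, 62.1 and 62.2 CPM and 37.7, 29.4 and 36.5 CPM on these days, and with BAP+IAA 57.3, 63.8 and 51.6 CPM and 20.2, 27.2 and 19.9 CPM. With IAA alone it had 79.0, 67.6 and 56.7 CPM and 49.9, 91.3 and 57.1 CPM, which overlapped. The combination effect changed by -1.90 ± 0.22 on the log2 scale (SE, edgeR adjusted p = 1.5e-06) and the BAP effect by -1.34 ± 0.22 (SE, edgeR adjusted p = 0.0009).

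Whether the change over time differed between IAA alone and the combination was tested directly, as the change from 5 to 15 days with IAA minus the same change with BAP+IAA, in which Mock cancels. The change was more positive with IAA alone in 34 of the 105 genes (32.4%) and more negative in 0 (edgeR, adjusted p under 0.05), where 7.12% and 5.14% of all tested genes were called. Of the other abundant genes, 15.5% and 16.6% were called. At an unadjusted p under 0.05 the 105 genes gave 56 and 0, where 13.5% and 11.6% of all tested genes passed, and with DESeq2 39 and 0, against 8.2% and 5.88%. The median difference was 0.54 on the log2 scale, against -0.02 for the other abundant genes, and it was positive in 102 of the 105 genes. The 34 genes stood at a median of 23.9% of Mock at 5 days and 49.7% at 15 days with IAA, and at 37.0% and 36.7% with BAP+IAA. The genes were picked by this test and the rule holds their means over the 3 days in the same window, so the order of these medians follows largely from the choice. Of the 34 genes, 25 were among the 60 whose IAA effect became smaller and 9 among the 12 whose difference from Mock became larger in the combination. These tests share the IAA or BAP+IAA libraries with the difference, so the overlaps are not independent.

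MA_8441g0010 had the largest such difference, 2.04 ± 0.39 on the log2 scale (SE, edgeR adjusted p = 0.00069). MA_205961g0010 followed, with 208, 230.1 and 253 CPM with IAA at 5 days and 340.1, 388 and 481 CPM at 15 days. In the combination it had 513, 496 and 411 CPM at 5 days, 583, 562 and 764 CPM at 10 days and 277, 291 and 206 CPM at 15 days. The order of the treatments thus turned over, without overlap between them on either day. The difference was 1.70 ± 0.21 on the log2 scale (SE, edgeR adjusted p = 1.9e-06), and its Mock libraries ranged from 729 to 1058 CPM over the 3 days.

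**Figure D4:**
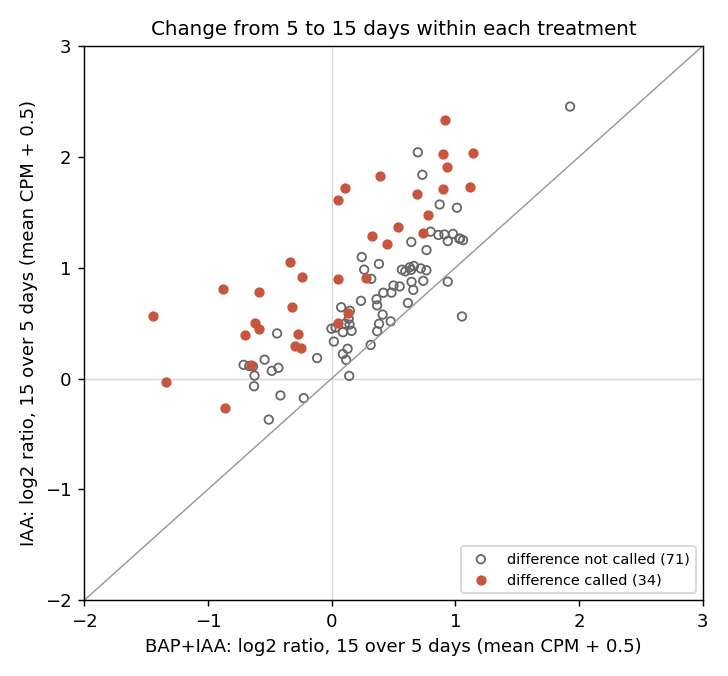
Change from 5 to 15 days within IAA (y axis) against the change within BAP+IAA (x axis) for the 105 genes, each as the log2 ratio of mean CPM with 0.5 added. Filled points are the 34 genes whose 2 changes differed by edgeR at an adjusted p under 0.05, open points the other genes, and the diagonal marks equal change. All filled points lie above the diagonal.

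In Mock and with BAP alone, few of the 105 genes were called at an adjusted p under 0.05 over the same days. Mock at 15 days was higher than at 5 days in 1 gene and lower in 0 (edgeR, adjusted p under 0.05), where 1.07% and 0.617% of all tested genes were called, and the median change was -0.05 on the log2 scale. At an unadjusted p under 0.05 the numbers were 8 and 9, where 7.92% and 6.35% of all tested genes passed, and with DESeq2 2 and 1, against 2.19% and 1.08%. The gene was MA_6689013g0010, with 127, 134 and 151 CPM at 5 days and 233, 263 and 190.5 CPM at 15 days, a change of 0.73 ± 0.17 (SE, edgeR adjusted p = 0.018). Its call was lost without replicate 1 or 2 of Mock at 5 days or replicate 2 of Mock at 15 days (edgeR adjusted p = 0.14, 0.071 and 0.14), and 2 genes were called without replicate 1 or 2 of IAA at 15 days. In the lower direction 1 gene was called without replicate 1 of IAA at 10 days, replicate 2 or 3 of BAP at 15 days or replicate 3 of Mock at 5 days.

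The BAP effect became more negative from 5 to 15 days in 2 of the 105 genes and more positive in 0 (edgeR, adjusted p under 0.05), where 0.834% and 0.981% of all tested genes were called. At an unadjusted p under 0.05 the numbers were 19 and 4, where 6.64% and 7.19% of all tested genes passed. Of the other 1745 abundant genes, 253 and 140 passed at that limit. At an adjusted p under 0.05, 3.78% and 1.38% of them were called. The 1.9% of the 105 genes called more negative is below that share, so nothing is read from these counts. With DESeq2 the 105 genes gave 2 and 1, against 1.37% and 2.26% of all tested genes. The median change was -0.20 on the log2 scale and 81 genes had a negative value, while the other abundant genes had a median of -0.06. Beside MA_10430063g0010 the other called gene was MA_20409g0010. With BAP it had 204, 192 and 209 CPM at 5 days, 161, 164 and 156 CPM at 10 days and 163, 136 and 119.6 CPM at 15 days. Mock had 269.6, 242 and 215 CPM at 5 days and 243, 227 and 240.5 CPM at 15 days, and the effect changed by -0.51 ± 0.14 (SE, edgeR adjusted p = 0.046). That call was lost in 15 of the 30 fits that left out a library, where the adjusted p ran up to 0.16. These were the fits without replicate 1 or 3 of BAP at 5 days, replicate 2 or 3 of BAP at 15 days, replicate 2 or 3 of Mock at 5 days, any Mock library at 15 days, and of libraries that enter only the shared estimate of spread, replicate 2 or 3 of Mock at 10 days, replicate 2 or 3 of IAA at 5 days and replicate 1 or 3 of IAA at 15 days. The number of genes whose effect became more negative was 4 without replicate 2 of BAP at 5 days or replicate 2 of IAA at 15 days, and 1 gene was called more positive without replicate 1 of IAA at 10 days, replicate 2 of BAP at 15 days or replicate 2 of Mock at 15 days.

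**Figure D5:**
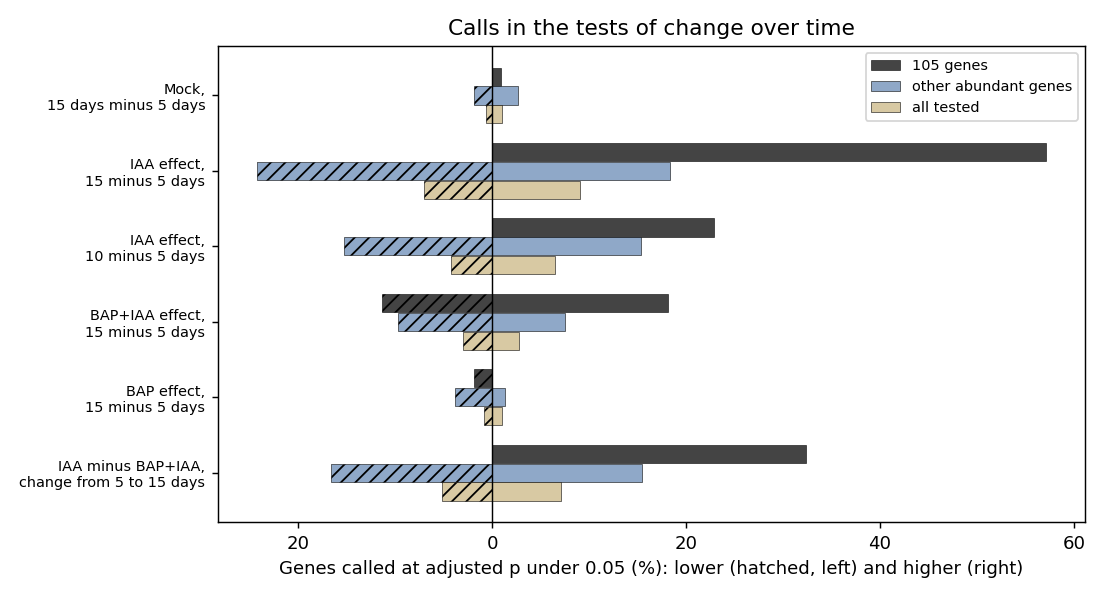
Share of genes called by edgeR at an adjusted p under 0.05 (%, x axis; higher to the right, lower hatched to the left) in the 6 tests of change over time (y axis), for the 105 genes, the other 1745 abundant genes and all 38239 tested genes. For the IAA effect 57.1% of the 105 genes are called higher and 0 lower, against 18.3% and 24.2% of the other abundant genes.

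The response to BAP, which the rule bounds only from above, varied among the 105 genes. In 16 genes the log2 ratio of BAP to Mock was at most -1, in 50 it lay above -1 and up to -0.5, and in 39 between -0.5 and 0.5. The level in the combination was within 0.5 (log2) of that with IAA alone in 87 genes, higher by at least that much in 10 and lower in 8. The rule holds both levels in the same window, so these counts follow largely from the choice and nothing is read from them. The IAA effect became smaller from 5 to 15 days in 7 of the 16 genes, 28 of the 50 and 25 of the 39 (edgeR, adjusted p under 0.05), with median changes of 0.50, 0.78 and 0.92 on the log2 scale. In the combination the median change was -0.30 in the 16 genes, of which 1 was called smaller and 6 larger. It was 0.31 in the 50 genes, with 11 and 3 calls, and 0.52 in the 39 genes, with 7 and 3 calls. These subdivisions share their Mock libraries with the changes and are given as counts.

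Calls for the IAA effect were found at all levels of abundance. The effect became smaller from 5 to 15 days in 22 of the 43 genes below 200 CPM in Mock, 19 of the 36 from 200 to below 500 CPM, 13 of the 15 from 500 to below 1000 CPM and 6 of the 11 at 1000 CPM or more (edgeR, adjusted p under 0.05). The median changes were 0.65, 0.72, 1.15 and 1.25 on the log2 scale. Shares among other genes in the same ranges of abundance were not computed, so nothing is read from the differences between the ranges. The spread between replicates was larger in the 105 genes than in the other abundant genes. The median coefficient of variation over the 3 libraries ran from 8.93% to 19.6% between the 12 groups, against 5.85% to 8.91%, and was higher in each of the 12. Only 2 of the 105 identifiers share their stem, the part before the letter g, and 103 have a stem of their own.

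Next to the 105 genes stand the abundant genes that lay in the same window with IAA but outside it in the combination, 65 nearer to Mock and 57 further from it. In the 65, from 5 to 15 days the IAA effect became smaller in 16 (24.6%) and larger in 1, with a median change of 0.40 on the log2 scale. The combination effect became smaller in 12 and larger in 3, with a median of 0.38, against 0.34 in the 105 genes. The change was more positive with IAA than with the combination in 10 and more negative in 1, with a median difference of 0.16, against 0.54 in the 105 genes (edgeR, adjusted p under 0.05, in all). In the 57, the IAA effect became smaller in 21 (36.8%) and larger in 1, with a median change of 0.40. The combination effect became more positive in 2 and more negative in 31, with a median of -1.72, and the BAP effect more negative in 23. The change was more positive with IAA than with the combination in 49 and more negative in 0, with a median difference of 2.08. No test between the sets was made.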

How the data were processed

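Per the labels, hypocotyl RNA was sequenced in 36 libraries. The submitters' processing notes name Trimmomatic, STAR and HTSeq, without versions, and the authors deposited raw read counts per gene model. Genome build, gene models used and strandedness: not given in the sources used here, so reads of overlapping, antisense or near-identical models cannot be told apart. No column was left unmapped (0).

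CPM and the rule use column sums. Tests used R 4.3.3 with edgeR 4.0.16 (limma 3.58.1): filterByExpr kept 38239 models, TMM factors lay between 0.94 and 1.07, and 1 robust quasi-likelihood model with 12 group means (24 residual degrees of freedom) was checked on simulated data. SEs are the log2 change divided by the root of F. Calls use Benjamini-Hochberg adjusted p under 0.05, over all tested models, 2-sided. Contrasts with IAA, BAP+IAA or BAP share Mock libraries. An amount of 3 counts equals 0.13 to 0.24 CPM, for counting error only. Members and lists were chosen with earlier results of these data known. Identifiers printed are the 2 with the highest Mock mean and, per test, up to 2 with the largest called change in each direction. Alternatives were DESeq2 1.42.0, RLE factors, total counts, no filter, a replicate block and leaving out libraries.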

Additional observations from a re-analysis of the deposited data

Results flagged for a closer look

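Effects that differed between days or treatments by a test of the difference itself are collected here with edgeR's values. The IAA effect became smaller from 5 to 15 days in 60 of the 105 genes and from 5 to 10 days in 24. The shares called were 9.04% and 6.53% of all tested genes, and 18.3% and 15.4% of the other abundant genes. The BAP+IAA effect became smaller from 5 to 15 days in 19 and larger in 12. Here the shares were 2.75% and 3.0% of all tested genes, and 7.51% and 9.74% of the other abundant genes. The BAP effect became more negative in 2, against 0.834% of all tested and 3.78% of the other abundant genes. The 12 and the 2 are thus near or below the share among the other abundant genes. The change from 5 to 15 days was more positive with IAA than with BAP+IAA in 34, against 7.12% and 15.5%.

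Among single genes, the IAA effect on MA_9307g0010 changed by 3.42 (log2) from 5 to 15 days and by 3.06 from 5 to 10 days, and its BAP+IAA effect by 2.88 from 5 to 15 days. For MA_4154579g0010 the IAA effect changed by 2.43 and 2.23 over the same spans. The BAP+IAA effect changed by 1.29 for MA_191819g0010, by -2.16 for MA_8441g0010 and by -1.90 for MA_10430063g0010. The BAP effect changed by -1.34 for MA_10430063g0010 and by -0.51 for MA_20409g0010, whose call was lost in 15 of the fits that left out a library. The difference between the IAA and BAP+IAA changes was 2.04 for MA_8441g0010 and 1.70 for MA_205961g0010.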

How the results depend on the processing

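The rule gave 105 genes, 107 with 5 CPM added in place of 0.5 (96 shared), 106 with TMM-scaled CPM (100 shared) and 96 to 109 without single libraries. Leaving out each library that enters a test gave ranges of genes called. For the IAA effect from 5 to 15 days they were 50 to 66 smaller and 0 to 3 larger, and from 5 to 10 days 17 to 29 and 0. For the BAP+IAA effect they were 9 to 21 smaller and 7 to 13 larger, for the BAP effect 0 to 1 more positive and 1 to 4 more negative, for Mock 0 to 2 higher and 0 to 1 lower, and for IAA against BAP+IAA 23 to 35 higher and 0 lower. The fits without the 6 libraries of BAP and BAP+IAA at 10 days, which enter no test, were not run.

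Without the filter on low counts the BAP+IAA effect was smaller in 12 genes in place of 19. Among all tested genes 739 of 52327 were then called, in place of 1050 of 38239. With RLE size factors and with total counts the BAP effect was more negative in 1 gene in place of 2, and with DESeq2 it was more positive in 1 in place of 0. DESeq2 called 2 genes higher and 1 lower in Mock. With BAP replicate 1 left out on all 3 days, an alternative chosen after seeing the data, Mock was lower in 1 gene and the BAP effect more positive in 1, while the IAA effect was smaller in 63 from 5 to 15 days. Of all 38957 genes tested in that fit, 242, 311 and 3511 were called in these directions. The replicate block called 2 genes higher and 3 lower in Mock, in place of 1 and 0, and 62 with a smaller IAA effect from 5 to 15 days. Of all 38239 tested genes it called 834 higher and 355 lower in Mock, in place of 410 and 236. For the smaller IAA effect it called 3602 of them, in place of 3458. Calls thus became more numerous among all tested genes as well. Same-numbered libraries of different groups did not all deviate together (correlation -0.09 to 0.28, over 0.1 in 59 of 198 pairs). They did so more often than differently numbered ones, which were over 0.1 in 18 of 396 pairs (median -0.03 against 0.05), and 23 of 36 libraries correlated best with their own number, a hint from the data that numbers share something. The labels give no pairing and most pairs stayed under 0.1, so the fit without the block is the one reported. No named value changed sign. The 3 replicates of a group limit what could be called.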
